A study of Mus musculus with 9 samples.

Results

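The interferon-stimulated genes and interferon regulatory factors of 3T3-L1 cells, a mouse preadipocyte line, were followed here across adipocyte differentiation with and without lysine. The 36 genes were taken by symbol from the 54532 genes of the deposited tables, and each symbol matched a single gene. They comprised 2 cytosolic RNA sensors, 8 transcription factors, 10 antiviral effectors, the 2 genes of the ISG15 system, 7 other interferon-induced genes, 3 guanylate-binding proteins and 4 genes of antigen processing and presentation. RNA was sequenced in 9 libraries of the line, 3 per group. Undifferentiated cells were confluent preadipocytes in DMEM, Differentiated cells had been moved after 3 days at confluence into a differentiation medium with lysine added, and Lysfree cells had received the same medium with no lysine added. Its added agents were insulin at 10 μg/mL, the PPARγ agonist rosiglitazone at 1 μM, the glucocorticoid dexamethasone at 1 μM and the phosphodiesterase inhibitor IBMX at 0.5 mM, and all 4 were shared by Differentiated and Lysfree and absent from Undifferentiated. By the study's methods the Undifferentiated cells were kept in calf serum and both other groups in fetal bovine serum, so the serum, the base medium and the 4 agents cannot be told apart in any comparison with Undifferentiated. All libraries came from a single cell line. The labels do not say whether replicates were separate cultures on separate days, so the p values speak for these libraries only. A gene's standard error (SE) can also be smaller than its own spread between them.

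Interferons are secreted proteins through which a cell warns itself and its neighbours of infection. Type I interferons bind the receptor chains Ifnar1 and Ifnar2 and activate the Janus kinases Jak1 and Tyk2, and phosphorylated Stat2 takes part with Irf9 in the complex ISGF3, which binds the interferon-stimulated response element (ISRE) of antiviral genes. Interferon-γ acts through Ifngr1 and Ifngr2 on genes with an interferon-γ-activated sequence (GAS). Many cells, fibroblasts included, keep low levels of these genes without any infection, and the genes of antigen presentation among them, such as B2m, are made by nearly every cell.

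The total count was 15880144 to 21806693 per library, with between 18442 and 19536 genes detected. The 36 genes together took 0.427 ± 0.0350% of the counts in Undifferentiated (mean ± SD, n = 3), 0.165 ± 0.0133% in Differentiated and 0.190 ± 0.00200% in Lysfree. B2m carried much of this share, and without it the other 35 took 0.270 ± 0.0411%, 0.131 ± 0.0125% and 0.108 ± 0.00301%, so that the order of Differentiated and Lysfree turned. Lysfree 1 stood apart from the other Lysfree libraries over all genes, with a chi-square per degree of freedom of 39.6 and 40.7 against them, where all other pairs within a group gave 2.67 to 11.3. Undifferentiated 2 was the highest of its group in 31 of the 35 expressed interferon genes and Differentiated 3 in 30 of 35, so results that rest on these libraries are given below with and without them. The labelled cell type was checked against markers. The summed level of 10 adipocyte markers was 391 to 506 FPKM in Undifferentiated, 6698 to 6986 in Differentiated and 245 to 320 in Lysfree. The Lysfree libraries, though labelled differentiated, thus had less adipocyte marker RNA than Undifferentiated. FPKM are fragments counted on a gene, relative to its length and a size of the library. The summed level of 9 fibroblast and preadipocyte markers was 5735 to 6220 FPKM in Undifferentiated, 1424 to 1432 in Differentiated and 2728 to 2784 in Lysfree. Among 18 immune cell markers, Adgre1, Itgam, Tyrobp, Ncr1 and Siglech were at 0 in every library and Ptprc, carried by all leukocytes, had at most 1 count. The summed immune marker level was 20.2 to 24.6 FPKM in Undifferentiated, 10.0 to 11.8 in Differentiated and 13.0 to 14.9 in Lysfree, highest in Undifferentiated like most of the interferon genes but lowest in Differentiated. Against Undifferentiated, Lyz2, Csf1r and Aif1 fell and Cd68 rose in both other groups, and Lyz2, the most abundant of the first 3, was 11.6, 14.5 and 13.8 FPKM in Undifferentiated, 0.688, 0.938 and 0.470 in Differentiated and 3.68, 3.35 and 3.45 in Lysfree. The part of these markers in the results was not tested. In bulk RNA, fewer cells with a transcript and less transcript per cell cannot be told apart.

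Promoter sequences are shown first, since the ISRE and GAS letters are what many of these genes share. The genes were listed as interferon genes and these are interferon elements, so their share in the list is a description and no independent support. RefSeq promoters (GRCm38.p6, 250 bases before to 50 after the annotated start) were found for 30 of the 36 genes. The entries of Mx1, Mx2, Rtp4, Ifi27, Usp18 and Parp14 were not in the table. An ISRE, searched as TTTC, any 2 bases and TTTC on both strands, was present in 15 of the 30 genes (50%) and in 3.99% of all 27025 genes with a promoter. A GAS, searched as TTCNNNGAA on both strands, was present in 8 of the 30 (26.7%) and in 9.55% of all genes. The windows below were chosen for the duplicated pair Ifit3 and Ifit3b, for Isg15 and Gbp3 as genes that were lowest in Lysfree, for B2m and Bst2 as genes that were lowest in Differentiated, and for the GAS of Irf1. Each is printed 5′ to 3′ on the strand of the gene and ends at or near its start, with annotated exon bases left out, and capitals mark every base of an ISRE match (in Irf1, which has no ISRE match, those of a GAS match).
Ifit3 (ISRE, chr19:34583329-34583528, plus strand): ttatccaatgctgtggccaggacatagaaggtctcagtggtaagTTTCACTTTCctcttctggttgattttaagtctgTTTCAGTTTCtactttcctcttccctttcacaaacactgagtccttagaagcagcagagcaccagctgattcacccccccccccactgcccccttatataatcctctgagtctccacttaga
Ifit3b (ISRE, chr19:34607757-34607956, plus strand): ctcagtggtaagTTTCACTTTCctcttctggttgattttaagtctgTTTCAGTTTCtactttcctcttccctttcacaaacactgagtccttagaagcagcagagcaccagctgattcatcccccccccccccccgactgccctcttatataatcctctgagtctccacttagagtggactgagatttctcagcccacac
Isg15 (ISRE, chr4:156200819-156201018, minus strand): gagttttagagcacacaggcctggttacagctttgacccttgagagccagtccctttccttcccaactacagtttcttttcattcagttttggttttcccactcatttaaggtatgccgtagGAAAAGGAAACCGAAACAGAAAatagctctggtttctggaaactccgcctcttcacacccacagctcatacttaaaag
Gbp3 (ISRE, chr3:142559844-142560025, plus strand): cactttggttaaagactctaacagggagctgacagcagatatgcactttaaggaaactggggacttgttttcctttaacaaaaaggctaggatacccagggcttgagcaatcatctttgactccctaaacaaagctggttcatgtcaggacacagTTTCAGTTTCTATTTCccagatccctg
B2m (ISRE, chr2:122147487-122147685, plus strand): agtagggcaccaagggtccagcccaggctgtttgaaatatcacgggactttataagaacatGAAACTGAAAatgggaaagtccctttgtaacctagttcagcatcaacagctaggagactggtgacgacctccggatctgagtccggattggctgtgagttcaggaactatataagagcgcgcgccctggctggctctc
Bst2 (ISRE, chr8:71537473-71537672, minus strand): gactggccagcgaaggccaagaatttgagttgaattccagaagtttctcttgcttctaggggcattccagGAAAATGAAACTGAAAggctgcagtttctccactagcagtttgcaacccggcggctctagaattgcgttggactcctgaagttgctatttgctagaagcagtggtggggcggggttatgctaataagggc
Irf1 (GAS, chr11:53769814-53770013, plus strand): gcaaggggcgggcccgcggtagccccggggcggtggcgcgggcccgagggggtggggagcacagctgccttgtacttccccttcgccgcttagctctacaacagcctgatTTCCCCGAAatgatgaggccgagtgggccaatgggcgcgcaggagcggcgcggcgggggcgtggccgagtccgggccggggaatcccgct
The Ifit3 and Ifit3b promoters share an identical run of 169 bases that holds both ISRE matches, which lie 34 bases apart in each. In Isg15 and Bst2 the capitals run through overlapping matches, 3 in Isg15 and 2 in Bst2, reading GAAA, any 2 bases and GAAA on the printed strand. Gbp3 likewise holds 2 overlapping matches close to its start. A letter match is not a bound site, and no binding was measured.

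**Figure D1:**
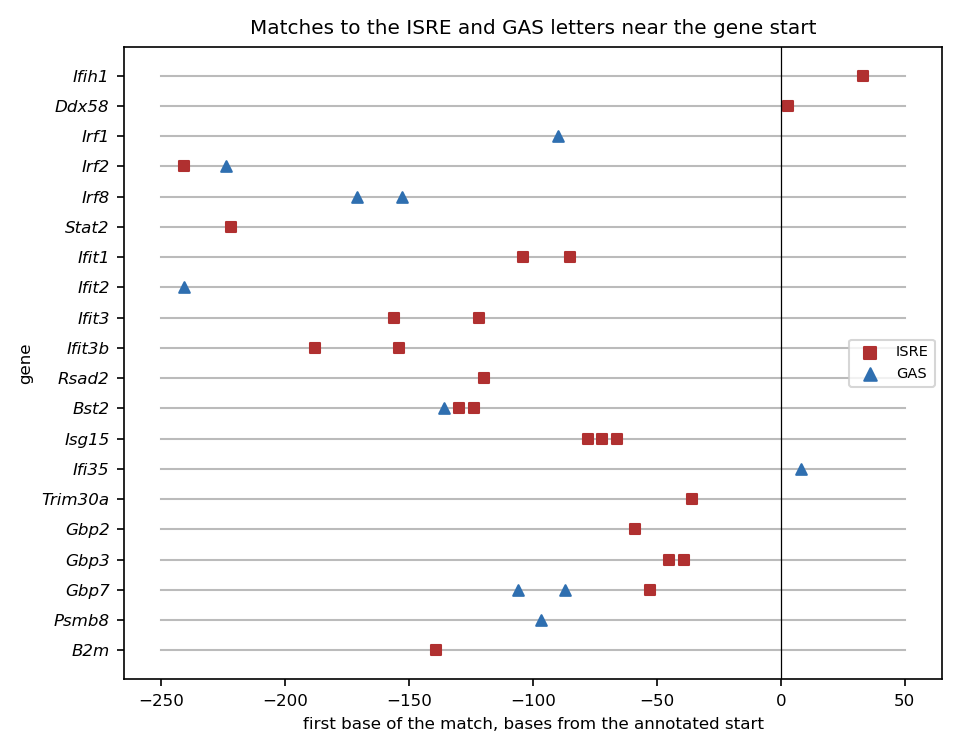
Positions of ISRE (squares) and GAS (triangles) matches in the RefSeq promoters of the 20 interferon genes with any match, as the distance in bases of the first base of each match from the annotated start; the grey line spans 250 bases before to 50 after the start, and the first listed promoter of each gene is drawn. Most ISRE matches sit upstream of the start, with 3 closely spaced ones in Isg15 and 2 each in Ifit1, Ifit3, Ifit3b, Bst2 and Gbp3.

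Most of the 36 genes had their highest levels in Undifferentiated cells. In Differentiated vs. Undifferentiated, 20 of the 36 fell and 0 rose, where 11.4% of all genes tested fell and 10.4% rose by the same rule (edgeR's quasi-likelihood test, adjusted p under 0.05 and at least 2-fold). With no fold threshold, at an adjusted p under 0.05, 32 were lower (23.2% of all genes) and 1, Ifi27, was higher (23% of all genes). Without Undifferentiated 2, the library with the highest levels, 14 of the 36 fell in this comparison, and without Differentiated 3, 23 fell. In Lysfree vs. Undifferentiated, 24 fell and 0 rose, against 8.76% and 5.52% of all genes, and with no fold threshold 31 were lower and 0 higher (17.1% and 18% of all genes). In Lysfree vs. Differentiated, 18 fell, against 10.5% of all genes, and 3 rose (B2m, Bst2 and Irf5), against 8.14%. Over genes with at least 10 counts in every library, which left out Irf5, Irf8 and Mx1, 17 fell and 1, B2m, rose. Bst2 was then at a log2 fold change of 0.996 and not called. With no fold threshold and no such count minimum, 23 were lower and 7 higher, against 18.8% and 19.7% of all genes. Between libraries, the FPKM of the groups did not overlap for 30 lower and 1 higher gene in Differentiated vs. Undifferentiated (24.7% and 26.2% of all genes tested), for 33 lower genes in Lysfree vs. Undifferentiated (23.2%, and 20.2% higher), and for 24 lower and 7 higher genes in Lysfree vs. Differentiated (25.3% and 21.3%). The median log2 fold change of the 36 genes was -1.05, -1.93 and -1.07 in these comparisons, while the medians over all genes tested were 0.02, -0.02 and -0.06. The comparisons share libraries and are not independent of each other. Of the 36, 35 passed edgeR's expression filter, and Irf8 alone did not. Among all genes passing it, a larger share was called, 17% lower and 15.2% higher in Differentiated vs. Undifferentiated, 13.1% and 8.54% in Lysfree vs. Undifferentiated, and 15.4% and 12.7% in Lysfree vs. Differentiated.

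The order of the groups differed between members. With no overlap between any libraries, 19 of the 36 (52.8%) were highest in Undifferentiated, intermediate in Differentiated and lowest in Lysfree, an order held by 3.07% of the 25529 genes with a count in any library. These were Irf1, Irf7, Stat2, Ifit1, Ifit3, Ifit3b, Oasl2, Cmpk2, Mx1, Mx2, Isg15, Rtp4, Xaf1, Parp14, Gbp2, Gbp3, Gbp7, Psmb8 and Psmb9. Another 7 (19.4%, against 4.4% of all genes) were lowest in Differentiated and intermediate in Lysfree: Irf2, Irf5, Irf9, Ifit2, Bst2, Trim30a and B2m. For the other 10 at least a pair of groups overlapped.

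**Figure D2:**
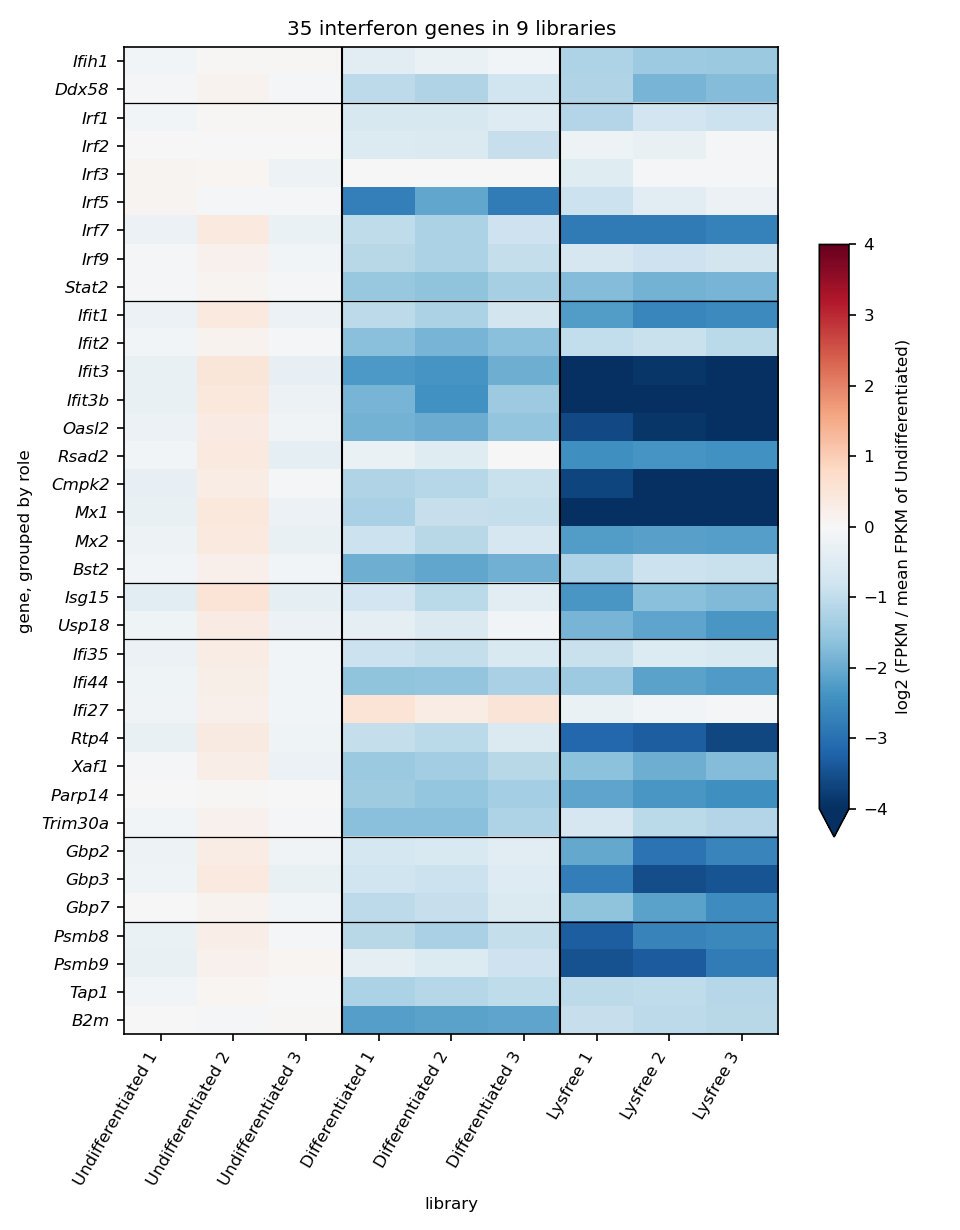
Level of 35 interferon genes (rows, grouped by role, horizontal lines between roles) in each of the 9 libraries (columns) as log2 of FPKM over the mean FPKM of Undifferentiated, with the colour scale cut at 4 below 0; Irf8 is left out because no library had more than 3 counts. Lysfree libraries are darkest blue for Ifit3b, Mx1, Cmpk2, Ifit3 and Oasl2, and paler than Differentiated for Irf5, Bst2 and B2m.

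The RNA sensors come first in the pathway. Ddx58 (RIG-I), which senses short double-stranded and triphosphate-bearing RNA, measured 14.2, 16.5 and 14.3 FPKM in the Undifferentiated libraries, 7.20, 6.50 and 8.67 in Differentiated and 6.53, 4.15 and 4.52 in Lysfree. Both treated groups lay below Undifferentiated in every library, and overlapped each other. Its log2 fold change was -1.04 ± 0.06 (± SE, adjusted p = 1.42e-56) in Differentiated vs. Undifferentiated and -1.52 ± 0.13 (adjusted p = 1.11e-11) in Lysfree vs. Undifferentiated. The first is close to the 2-fold threshold and was -0.96 without Undifferentiated 2 and -0.94 without Differentiated 2. Ifih1 (MDA5), the sensor of long double-stranded RNA, was low, at 1.33, 1.51 and 1.51 FPKM in Undifferentiated, 1.07, 1.20 and 1.33 in Differentiated and 0.620, 0.533 and 0.517 in Lysfree. It fell in Lysfree against both other groups, with log2 fold changes of -1.34 ± 0.18 against Undifferentiated and -1.04 ± 0.17 against Differentiated. Both calls were lost with limma on log2(FPKM + 1) (-0.66 and -0.50), and the latter also with library sizes alone (-0.97) and without Lysfree 3 (-0.997) or Differentiated 3 (-0.96). The change in Differentiated vs. Undifferentiated was -0.30 ± 0.13 and did not reach 2-fold.

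Among the transcription factors, the ISGF3 subunits Stat2 and Irf9 fell in Differentiated cells. Stat2 (chr10:128270559-128292849) was the most abundant factor of the 8 in Undifferentiated, at 38.5, 44.2 and 39.6 FPKM, against 14.3, 13.5 and 16.1 in Differentiated and 12.4, 10.9 and 11.3 in Lysfree. It was 2.84-fold lower in Differentiated (log2 fold change -1.50 ± 0.06, adjusted p = 4.77e-151) and 3.42-fold lower in Lysfree (-1.77 ± 0.10, adjusted p = 1.18e-15) than in Undifferentiated. Irf9, the DNA-binding subunit of ISGF3, measured 14.7, 17.1 and 14.2 FPKM, 7.06, 6.43 and 7.97 FPKM and 9.69, 8.70 and 9.17 FPKM in the same order of groups. Its lowest level was in Differentiated, with a log2 fold change of -1.13 ± 0.07 (adjusted p = 6.65e-58), while in Lysfree it was -0.69 ± 0.11 against Undifferentiated and not called. Irf9 overlaps Rnf31 on the same strand, and a read from the overlap could be counted for the wrong gene.

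Irf7, which amplifies type I interferon production and is itself interferon-induced, showed the largest drop in Lysfree among the called factors. Its levels were 8.70, 13.6 and 8.52 FPKM in Undifferentiated, 5.05, 4.29 and 5.84 in Differentiated and 1.43, 1.43 and 1.57 in Lysfree. Irf7 fell in each comparison, with log2 fold changes of -1.06 ± 0.09 in Differentiated vs. Undifferentiated, -2.75 ± 0.17 in Lysfree vs. Undifferentiated and -1.71 ± 0.16 in Lysfree vs. Differentiated (adjusted p = 2.59e-32, 4.89e-15 and 1.09e-08). The first call rested on Undifferentiated 2, without which the change was -0.80, and was also lost without Differentiated 2 (-0.95). Irf7 overlaps Phrf1 on the opposite strand.

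Irf5, a factor of inflammatory and interferon responses, was at low levels of 1.28, 1.11 and 1.14 FPKM in Undifferentiated, 0.178, 0.277 and 0.170 in Differentiated and 0.646, 0.866 and 0.993 in Lysfree. It fell in Differentiated with a log2 fold change of -2.49 ± 0.31 (adjusted p = 3.29e-15) and was higher again in Lysfree by 2.04 ± 0.34 (adjusted p = 3.94e-05), and the groups did not overlap. Both calls were lost with limma on log2(FPKM + 1), which gave -0.85 and 0.60. Irf5 overlaps Tnpo3 on the opposite strand, and its reads per library were few (counts 8, 15 and 8 in Differentiated).

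No other factor passed the 2-fold threshold. Irf1, which interferon-γ induces, had group means of 26.3 ± 1.53, 17.4 ± 0.788 and 13.9 ± 1.94 FPKM (± SD, n = 3) with no overlap. Its log2 fold change was -0.62 ± 0.06 in Differentiated and -0.87 ± 0.11 in Lysfree against Undifferentiated. In Lysfree vs. Differentiated it was -0.26 ± 0.11, which did not pass edgeR's test (adjusted p = 0.073). Irf2, which antagonises Irf1 at shared sites, had 4.82 ± 0.0902, 3.0 ± 0.410 and 4.24 ± 0.354 FPKM. Irf3, the constitutively present factor that virus sensors activate by phosphorylation, differed little, with means of 12 ± 1.43, 12.1 ± 0.155 and 10.5 ± 1.75 FPKM and changes of -0.02 ± 0.08, -0.14 ± 0.13 and -0.13 ± 0.12, none of which passed the test. The sign of the first turned in some of the other fits. Irf8, a factor of myeloid cells, had at most 3 counts in any library, which is the floor below which it was not told from 0.

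The antiviral effectors had the largest median fall of the roles in Differentiated and Lysfree against Undifferentiated, with log2 fold changes of -1.43 and -3.10. In Lysfree vs. Differentiated their median was -1.86, next to -1.87 for the guanylate-binding proteins. Of the 10 effectors, 8 (80%) fell in Differentiated vs. Undifferentiated, 8 in Lysfree vs. Undifferentiated and 8 in Lysfree vs. Differentiated. Of all genes tested, 11.4%, 8.76% and 10.5% fell in these comparisons. In the last, Bst2 rose (10% of the effectors, against 8.14% of all genes). The IFIT proteins, which bind foreign RNA or block its translation, are encoded by neighbouring genes on chromosome 19 (Ifit2 at chr19:34550694-34576419 to Ifit1 at chr19:34640871-34650009), and the neighbours did not follow a single pattern.

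Ifit3 (chr19:34583531-34588731) was 44.5, 75.8 and 43.7 FPKM in Undifferentiated, 11.1, 10.7 and 14.2 in Differentiated and 3.03, 3.73 and 3.45 in Lysfree. Undifferentiated 2 was well above the other Undifferentiated libraries, and no groups overlapped. Ifit3 was 4.67-fold lower in Differentiated (-2.22 ± 0.07, adjusted p = 7.83e-192) and 15.5-fold lower in Lysfree (-3.96 ± 0.17, adjusted p = 8.44e-19) than in Undifferentiated, and fell with a log2 fold change of -1.75 ± 0.16 (adjusted p = 7.96e-09) from Differentiated to Lysfree.

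Ifit3b (chr19:34607970-34613401), the near-copy of Ifit3, showed the largest drop of all 36 genes in Lysfree vs. Undifferentiated. It measured 12.2, 20.2 and 12.7 FPKM in Undifferentiated, 4.17, 2.82 and 5.48 in Differentiated and 0.285, 0.367 and 0.490 in Lysfree, the last from counts of 10, 14 and 19. Its log2 change was -5.24 ± 0.24 against Undifferentiated (adjusted p = 1.84e-18) and -3.36 ± 0.29 against Differentiated (adjusted p = 4.12e-09), beyond that of Ifit3 in both, and -1.90 ± 0.11 in Differentiated vs. Undifferentiated. The 2 genes share 18.5% of the 150-base words of the Ifit3 transcript and 16.0% of those of Ifit3b, so reads from the shared part could be split or lost and the values of each are uncertain to that extent.

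Ifit1 had 24, 36.8 and 24.2 FPKM in Undifferentiated, 13.6, 11.7 and 17 in Differentiated and 6.02, 4.60 and 4.81 in Lysfree. It fell in all 3 comparisons, with log2 fold changes of -1.04 ± 0.07, -2.42 ± 0.15 and -1.39 ± 0.15, but the first was -0.80 without Undifferentiated 2 and -0.92 without Differentiated 2. Ifit2 had the other order, at 6.99, 8.34 and 7.14 FPKM in Undifferentiated, 2.34, 2.05 and 2.35 in Differentiated and 3.75, 4.07 and 3.58 in Lysfree. It fell in Differentiated (-1.77 ± 0.11, adjusted p = 5.37e-62), and in Lysfree it was 0.83 ± 0.14 above Differentiated (adjusted p = 7.16e-05) on the log2 scale, short of 2-fold. Ifit1 and Ifit3 thus fell from Differentiated to Lysfree while Ifit2, in the same cluster, did not.

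**Figure D3:**
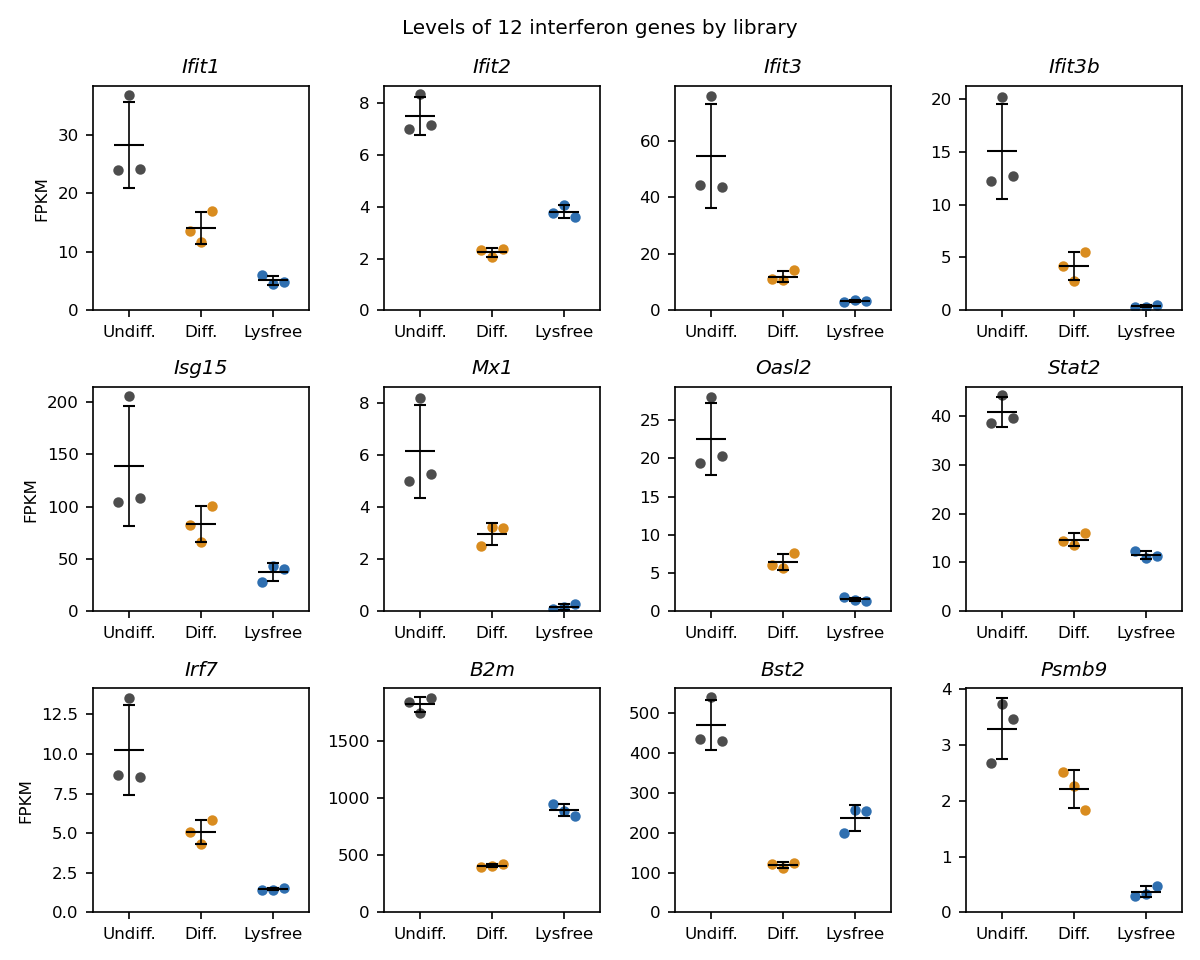
FPKM of 12 interferon genes in each library (points), with the group mean and SD (bars, n = 3), for Undifferentiated, Differentiated and Lysfree cells; each panel has its own axis starting at 0. Ifit1, Ifit3, Ifit3b, Isg15, Mx1, Oasl2, Irf7 and Psmb9 step down from left to right, as does Stat2, whereas Ifit2, B2m and Bst2 are lowest in Differentiated.

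Mx1 and Mx2, dynamin-like GTPases that trap viral components, are neighbours on chromosome 16. Mx1 (chr16:97447035-97462907) measured 4.98, 8.19 and 5.25 FPKM in Undifferentiated, 2.49, 3.22 and 3.21 in Differentiated and 0.0752, 0.166 and 0.300 in Lysfree, where its counts were 5, 12 and 22. It was 15.4-fold lower in Lysfree than in Differentiated (-3.95 ± 0.29, adjusted p = 3.07e-10), the largest drop of the 36 genes in that comparison, and had a log2 fold change of -5.01 ± 0.27 against Undifferentiated. Its change in Differentiated vs. Undifferentiated, -1.08 ± 0.11, was -0.80 without Undifferentiated 2 and -0.97 without Differentiated 1. Mx2 was 8.12, 12.1 and 7.59 FPKM in Undifferentiated, 5.13, 4.28 and 5.86 in Differentiated and 1.95, 2.05 and 2.02 in Lysfree. It fell in Lysfree against both groups (-2.16 ± 0.16 and -1.27 ± 0.15) but to a smaller extent than Mx1. Its change in Differentiated, -0.90 ± 0.09, was below 2-fold, but passed it without Differentiated 3 (-1.02) or Undifferentiated 3 (-1.01).

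Oasl2, an oligoadenylate synthetase-like protein that senses double-stranded RNA, was 19.3, 28 and 20.3 FPKM in Undifferentiated, 6.08, 5.68 and 7.57 in Differentiated and 1.83, 1.51 and 1.41 in Lysfree. Its steps were of similar size, -1.84 ± 0.06 from Undifferentiated to Differentiated (adjusted p = 4.32e-175) and -1.96 ± 0.14 from Differentiated to Lysfree (adjusted p = 2.58e-10). Rsad2 (viperin), an enzyme that makes a chain-terminating nucleotide, and Cmpk2, a mitochondrial nucleotide kinase, lie next to each other on chromosome 12 (chr12:26442746-26456452 and chr12:26469204-26479837). Rsad2 was 2.31, 3.28 and 1.89 FPKM in Undifferentiated, 2.06, 1.78 and 2.48 in Differentiated and 0.459, 0.484 and 0.464 in Lysfree. Undifferentiated and Differentiated overlapped (-0.29 ± 0.13, not called), and the drop was in Lysfree (-2.36 ± 0.22 and -2.10 ± 0.20 against the other groups). Cmpk2 was 5.69, 8.90 and 6.98 FPKM in Undifferentiated, 3.15, 3.29 and 3.91 in Differentiated and 0.560, 0.428 and 0.297 in Lysfree. It was 16.3-fold lower in Lysfree than in Undifferentiated (-4.03 ± 0.21, adjusted p = 4.89e-17) and also fell from Differentiated (-2.95 ± 0.21), while the call of -1.09 ± 0.10 in Differentiated was lost (-0.89) without Undifferentiated 2.

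Bst2 (tetherin, chr8:71534255-71537456), which holds budding virus at the cell surface, was the second most abundant of the 36 genes in Undifferentiated and Lysfree. It measured 436, 541 and 431 FPKM in Undifferentiated, 122, 111 and 125 in Differentiated and 198, 256 and 253 in Lysfree. Bst2 was 4.02-fold lower in Differentiated (-2.01 ± 0.06, adjusted p = 1.52e-283), and in Lysfree it was 1.05 ± 0.10 above Differentiated (adjusted p = 3.79e-08) and -0.94 ± 0.11 against Undifferentiated. The change from Differentiated lay at the 2-fold threshold, 0.98 without Lysfree 2 and 0.995 without Lysfree 3, and that from Undifferentiated passed it, at -1.01 and -1.001, without Lysfree 2 or Undifferentiated 3.

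The ISG15 system was lowest in Lysfree. Isg15, a ubiquitin-like protein attached to other proteins after interferon, was 104, 205 and 108 FPKM in Undifferentiated, 82.2, 66.5 and 101 in Differentiated and 27.7, 43.5 and 41 in Lysfree. Undifferentiated 2 was far above the other Undifferentiated libraries, and the groups did not overlap. Isg15 fell in Lysfree with a log2 fold change of -1.85 ± 0.18 against Undifferentiated (adjusted p = 1.97e-10) and -1.09 ± 0.16 against Differentiated, where the call was lost without Lysfree 1 or Differentiated 3 (-0.93 each), and had a log2 fold change of -0.78 ± 0.06 in Differentiated vs. Undifferentiated. Usp18, the protease that removes Isg15 and also damps the type I receptor, was 16.8, 23.7 and 16.1 FPKM in Undifferentiated, 14.3, 12.7 and 17.4 in Differentiated and 5.18, 4.38 and 3.75 in Lysfree. Undifferentiated and Differentiated overlapped, and Usp18 fell in Lysfree with log2 fold changes of -2.05 ± 0.15 and -1.67 ± 0.14 (adjusted p = 3.23e-13 and 4.17e-09).

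Of the 7 other interferon-induced genes, 4 fell in Differentiated vs. Undifferentiated, 4 fell in Lysfree vs. Undifferentiated and 1, Rtp4, fell in Lysfree vs. Differentiated. These shares were 57.1%, 57.1% and 14.3%, against 11.4%, 8.76% and 10.5% of all genes, so the last was near that of all genes. Rtp4, a transmembrane protein first known as a receptor chaperone, was 31.1, 49.1 and 34.1 FPKM in Undifferentiated, 19.6, 18.2 and 25.4 in Differentiated and 4.27, 3.86 and 3.02 in Lysfree. It was 9.93-fold lower in Lysfree than in Undifferentiated (-3.31 ± 0.16) and 5.42-fold lower than in Differentiated (-2.44 ± 0.15). In Differentiated vs. Undifferentiated it was -0.89 ± 0.07, short of 2-fold, and passed it without Differentiated 3 (-1.04) or Undifferentiated 1 (-1.02). Its locus overlaps Masp1, and 8.6% of its 150-base words occur in Gm45338, so some of its reads could be counted elsewhere.

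Parp14, an ADP-ribosyltransferase, was 9.66, 10.0 and 9.60 FPKM in Undifferentiated, 3.67, 3.35 and 3.79 in Differentiated and 2.24, 1.94 and 1.79 in Lysfree. The groups did not overlap, and its log2 fold changes were -1.47 ± 0.07 (adjusted p = 5.4e-95) in Differentiated and -2.25 ± 0.12 (adjusted p = 7.38e-17) in Lysfree against Undifferentiated. Xaf1, a pro-apoptotic protein that binds XIAP, stood at 9.05, 11.4 and 8.12 FPKM in Undifferentiated, 3.40, 3.64 and 4.42 in Differentiated and 3.05, 2.45 and 2.86 in Lysfree. Ifi44 stood at 20.8, 27.4 and 21.6 FPKM in Undifferentiated, 7.62, 7.85 and 9.43 in Differentiated and 8.50, 5.28 and 4.81 in Lysfree. Both fell against Undifferentiated, with log2 fold changes of -1.35 ± 0.09 and -1.73 ± 0.14 for Xaf1 and with log2 fold changes of -1.52 ± 0.06 and -1.87 ± 0.14 for Ifi44, and neither was called between Lysfree and Differentiated.

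Trim30a, a ubiquitin ligase that restrains NF-κB signalling, was 22, 26.9 and 22.8 FPKM in Undifferentiated, 7.56, 7.52 and 10.3 in Differentiated and 15, 11.4 and 10.7 in Lysfree. It was lowest in Differentiated (-1.53 ± 0.07, adjusted p = 5.98e-107), and in Lysfree it was -0.91 ± 0.12 against Undifferentiated, which became -1.09 and passed the threshold without Lysfree 1. Ifi35 had means of 24.4 ± 4.71, 14 ± 1.66 and 15.3 ± 1.92 FPKM and passed no 2-fold threshold. Ifi27, a small mitochondrial membrane protein, was the exception to the general direction, with 145 ± 20.5 FPKM in Undifferentiated, 199 ± 16.6 in Differentiated and 131 ± 9.60 in Lysfree, and a log2 change of 0.43 ± 0.05 (adjusted p = 4.6e-15) in Differentiated that stayed under 2-fold.

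The guanylate-binding proteins, large GTPases that attack the vacuoles of intracellular pathogens and answer mainly to interferon-γ, were lowest in Lysfree. Gbp3 (chr3:142560026-142573209) was 11.4, 16.9 and 10.6 FPKM in Undifferentiated, 7.48, 7.12 and 9.03 in Differentiated and 1.90, 1.11 and 1.18 in Lysfree. Gbp2 was 9.57, 13.4 and 9.90 FPKM in Undifferentiated, 6.73, 7.26 and 8.22 in Differentiated and 2.65, 1.42 and 1.76 in Lysfree. For both, each group lay apart from the others, and Lysfree 1 was the highest Lysfree library. All 3 genes fell in Lysfree against both groups and 0 of 3 passed 2-fold in Differentiated vs. Undifferentiated. Of all genes tested, 8.76% fell in Lysfree vs. Undifferentiated, 10.5% in Lysfree vs. Differentiated and 11.4% in Differentiated vs. Undifferentiated. Gbp7 was at -0.86 ± 0.08 in Differentiated vs. Undifferentiated and passed 2-fold without Differentiated 3 (-1.02). Gbp3 fell with log2 fold changes of -3.17 ± 0.19 and -2.44 ± 0.18 (adjusted p = 1.68e-15 and 4.11e-10), and Gbp2 with log2 fold changes of -2.46 ± 0.19 and -1.87 ± 0.19. Gbp7 was 7.68, 8.62 and 7.23 FPKM in Undifferentiated, 3.79, 4.13 and 5.28 in Differentiated and 2.56, 1.78 and 1.37 in Lysfree. Its changes in Lysfree were the smallest of the 3, -2.0 ± 0.16 and -1.15 ± 0.18, the latter lost without Lysfree 3 (-0.96) or Differentiated 3 (-0.998).

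The antigen presentation genes split. B2m (chr2:122147686-122153083), the light chain of class I molecules and the most abundant of the 36 genes, was 1838, 1740 and 1874 FPKM in Undifferentiated, 396, 408 and 423 in Differentiated and 952, 885 and 844 in Lysfree. The groups were far apart and the replicates close. B2m was 4.52-fold lower in Differentiated than in Undifferentiated (-2.18 ± 0.05, with an adjusted p below what the software can represent) and rose in Lysfree by 1.19 ± 0.08 against Differentiated (adjusted p = 1.07e-10). Against Undifferentiated it was -0.98 ± 0.09 in Lysfree, just under the threshold, and -1.05 without Lysfree 1 and -1.01 without Undifferentiated 2.

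Psmb8 and Psmb9, the inducible catalytic subunits that replace Psmb5 and Psmb6 in the immunoproteasome, were lowest in Lysfree, not in Differentiated. Psmb8 was 8.49, 12.1 and 9.68 FPKM in Undifferentiated, 4.65, 4.14 and 5.25 in Differentiated and 1.02, 1.57 and 1.70 in Lysfree. Psmb9 was 2.68, 3.74 and 3.46 FPKM in Undifferentiated, 2.51, 2.27 and 1.84 in Differentiated and 0.295, 0.330 and 0.479 in Lysfree. Both stepped down without overlap between groups. Psmb8 fell with log2 fold changes of -1.14 ± 0.10, -2.77 ± 0.18 and -1.64 ± 0.19 for Differentiated and Lysfree against Undifferentiated and for Lysfree against Differentiated (adjusted p = 1.83e-29, 2.94e-14 and 4.13e-07), the first becoming -0.98 without Undifferentiated 2. Psmb9 fell in Lysfree with log2 fold changes of -3.10 ± 0.23 and -2.51 ± 0.24 and had a log2 fold change of -0.60 ± 0.13 in Differentiated. The FPKM of Psmb8 as a percentage of that of Psmb5 was 18.4 ± 2.01% (mean ± SD, n = 3) in Undifferentiated, 4.82 ± 0.419% in Differentiated and 1.31 ± 0.174% in Lysfree, and Psmb9 relative to Psmb6 was 6.88 ± 0.712%, 3.30 ± 0.587% and 0.539 ± 0.119%. Of the constitutive catalytic subunits Psmb5, Psmb6 and Psmb7, 1 rose in Differentiated (Psmb7, 1.11 ± 0.06) and 1 in Lysfree (Psmb5, 1.02 ± 0.12) against Undifferentiated. Of all genes tested, 10.4% and 5.52% rose there. None of the 3 subunits passed the 2-fold threshold downwards in any comparison. Psmb7 was lower in Lysfree than in Differentiated without overlap (-0.68 ± 0.11, adjusted p = 1.59e-05), short of 2-fold.

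Tap1, a subunit of the peptide transporter that loads class I molecules, was 15.5, 17.8 and 16.8 FPKM in Undifferentiated, 6.95, 7.56 and 8.17 in Differentiated and 8.15, 8.27 and 7.51 in Lysfree. It fell against Undifferentiated in both (-1.17 ± 0.07 and -1.02 ± 0.11), with the second just under 2-fold without Lysfree 3 or Undifferentiated 2 (-0.98 and -0.97), and Differentiated and Lysfree overlapped. Psmb9 and Tap1 overlap each other on opposite strands on chromosome 17, so a few reads could be shared if strand was not used in counting.

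**Figure D4:**
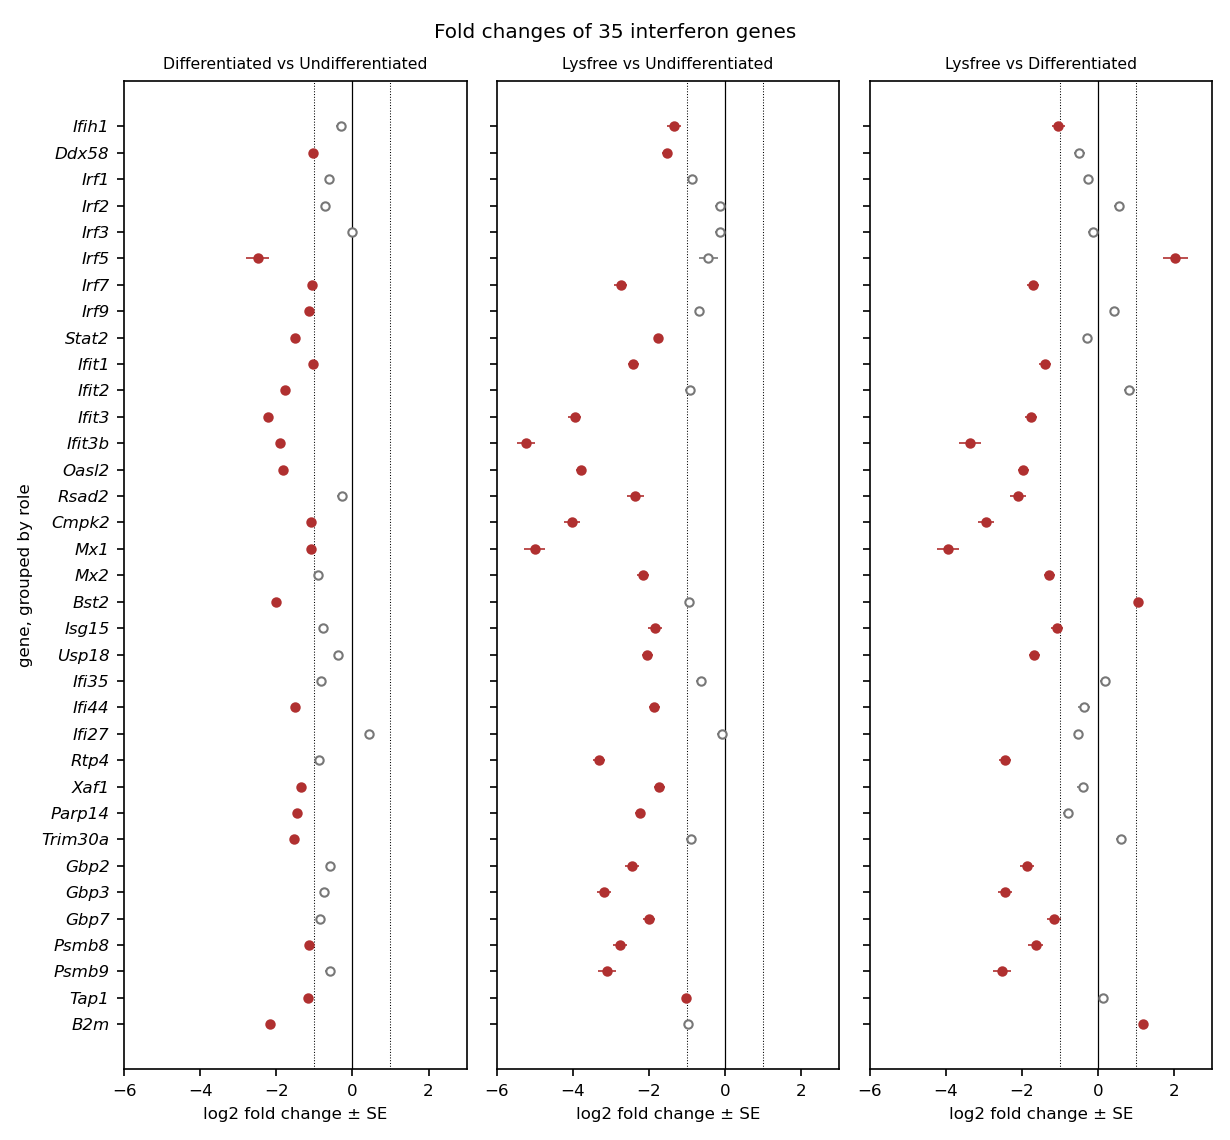
Log2 fold change ± SE of 35 interferon genes in the 3 comparisons (edgeR on counts of 6 libraries each); filled red points passed an adjusted p under 0.05 and 2-fold, open grey points did not, and dotted lines mark 2-fold. Points lie left of 0 except for Ifi27 in the first panel and for Irf5, Bst2, B2m, Ifit2, Trim30a, Irf2, Irf9, Ifi35 and Tap1 in the third.

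Genes with and without ISRE letters differed little in Differentiated vs. Undifferentiated. The median log2 fold change was -1.04 for the 15 genes with a match and -1.14 for the 14 others with a promoter in the table and more than floor counts. In Lysfree vs. Undifferentiated the medians were -1.85 and -1.37, and in Lysfree vs. Differentiated -1.09 and -0.31. These are descriptions over few genes, with no test. B2m and Bst2, printed above with their ISRE letters, were 2 of the 3 genes that rose in Lysfree vs. Differentiated, while Ifit3, Ifit3b, Isg15 and Gbp3, which carry the same letters, all fell there. The windows of B2m, Bst2, Isg15 and Gbp3 were chosen by these same levels, so their contrast follows from that choice.

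Ligands of the pathway were close to absent. Of 21 interferon genes, 17 had 0 counts in every library, Ifnb1 and all but 1 of the interferon-α genes among them, where a count of 0 allows up to 3 counts per library. The others reached at most 6 counts (Ifng) in any library. Only Ifnz was called, lower in Differentiated, with 4, 1 and 5 counts in the Undifferentiated libraries and 0 in each Differentiated library, and it is named here for that count alone. For the other ligands no difference was detectable at this depth.

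The receptors and Janus kinases moved in both directions. Ifnar1 was 13.7 ± 0.622, 12.6 ± 0.796 and 13.3 ± 2.04 FPKM (mean ± SD, n = 3) in Undifferentiated, Differentiated and Lysfree and was not called in any comparison. Ifnar2 fell in Differentiated with a log2 fold change of -1.15 ± 0.08, from 14.3 ± 0.640 to 6.53 ± 0.381 FPKM, and was 11.2 ± 1.83 FPKM in Lysfree. The interferon-γ receptor chains went opposite ways in Differentiated, with log2 fold changes of 1.53 ± 0.06 for Ifngr1 and -1.01 ± 0.07 for Ifngr2. Ifngr1 fell from 46 ± 0.951 FPKM in Differentiated to 10.5 ± 0.479 in Lysfree (-2.06 ± 0.10). Jak1 and Jak2 rose in Lysfree vs. Differentiated, by 1.36 ± 0.09 and 1.20 ± 0.11.

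Of 19 other sensors and adaptors tested, 4 were lower and 2 higher in Differentiated vs. Undifferentiated (21.1% and 10.5%, all genes 11.4% and 10.4%), 3 lower in Lysfree vs. Undifferentiated (15.8%, all genes 8.76%), and 4 lower and 2 higher in Lysfree vs. Differentiated (21.1% and 10.5%, all genes 10.5% and 8.14%). Dhx58 (LGP2), the regulatory relative of Ddx58, fell with log2 fold changes of -1.75 ± 0.10 in Differentiated and -2.40 ± 0.15 in Lysfree against Undifferentiated, and the double-stranded RNA receptor Tlr3 fell in Differentiated (-1.43 ± 0.14). Mavs, the mitochondrial adaptor of Ddx58 and Ifih1, and Tank, a scaffold of the kinases downstream, rose in Differentiated (1.06 ± 0.07 and 1.25 ± 0.06), and in Lysfree vs. Differentiated Mavs fell (-1.22 ± 0.10). Zbp1, a sensor of left-handed nucleic acids, fell in Lysfree against both groups (-2.05 ± 0.25 and -1.35 ± 0.26). In Lysfree vs. Differentiated the RNA-editing enzyme Adar and the lipopolysaccharide receptor Tlr4 rose (1.10 ± 0.10 and 1.28 ± 0.16).

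Of 14 negative regulators, 14.3% were lower and 21.4% higher in Differentiated vs. Undifferentiated (all genes 11.4% and 10.4%), 21.4% and 7.14% in Lysfree vs. Undifferentiated (8.76% and 5.52%), and 21.4% and 7.14% in Lysfree vs. Differentiated (10.5% and 8.14%). These are 1 to 3 genes each, and nothing is read from the list as a whole. Socs1, the feedback inhibitor of Janus kinases, fell in both treated groups, from 7.0 ± 0.548 FPKM in Undifferentiated to 2.32 ± 0.315 in Differentiated (-1.62 ± 0.12) and 2.81 ± 0.835 in Lysfree (-1.26 ± 0.18). Pias3, an inhibitor of STAT factors, fell in Differentiated (-1.51 ± 0.08) and rose in Lysfree vs. Differentiated (1.11 ± 0.12). The ubiquitin ligase Rnf125, which marks Ddx58 for degradation, rose from 2.54 ± 0.316 FPKM to 35.4 ± 1.74 FPKM in Differentiated (3.79 ± 0.11) and was 5.75 ± 1.76 FPKM in Lysfree (1.23 ± 0.22 against Undifferentiated, -2.56 ± 0.16 against Differentiated). The phosphatase Ptpn6 rose in Differentiated (1.77 ± 0.16) and fell in Lysfree (-2.48 ± 0.33 and -4.25 ± 0.25).

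A list of 72 further interferon-stimulated genes was called lower more often than all genes. In Differentiated vs. Undifferentiated 37 fell and 3 rose, in Lysfree vs. Undifferentiated 48 fell and 2 rose, and in Lysfree vs. Differentiated 27 fell and 6 rose. As shares, 51.4%, 66.7% and 37.5% fell, against 11.4%, 8.76% and 10.5% of all genes, and 4.17%, 2.78% and 8.33% rose, against 10.4%, 5.52% and 8.14%. Their median log2 fold changes were -1.09, -1.57 and -0.69. The largest falls in Differentiated among genes with at least 1 CPM were Gbp8 (-3.57 ± 0.25) and Ifi30, the lysosomal thiol reductase (-3.25 ± 0.07), and the largest rises were the chemokine Cxcl10 (2.0 ± 0.21) and the exonuclease Isg20 (1.80 ± 0.13). Cxcl10 was 0.375, 0.951 and 0.832 FPKM in Undifferentiated, 3.04, 2.43 and 3.30 in Differentiated and 0.0253, 0.163 and 0 in Lysfree, so that its peak was in Differentiated. From there it fell with a log2 fold change of -5.39 ± 0.44 in Lysfree, on counts of 1, 7 and 0, and Oas3, an RNA-activated synthetase, fell with a log2 fold change of -4.60 ± 0.55, on counts of 3, 2 and 0. Trim30d and Gbp8 rose in Lysfree vs. Differentiated (2.71 ± 0.16 and 2.97 ± 0.28). In Lysfree vs. Undifferentiated the largest falls were the GTPases Gbp10 (-5.49 ± 0.53, Lysfree counts 1, 2 and 0) and Tgtp2 (-5.29 ± 0.37, Lysfree counts 9, 6 and 0), and the largest rise was Ly6a, the stem cell antigen, from 94.1 ± 6.29 to 390 ± 24 FPKM (2.10 ± 0.10).

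Of the other antigen presentation genes, 8 of 22 fell and 0 rose in Differentiated vs. Undifferentiated, 9 of 22 fell and 1 rose in Lysfree vs. Undifferentiated, and 5 of 20 fell and 1 rose in Lysfree vs. Differentiated. The shares that fell were 36.4%, 40.9% and 25%, against 11.4%, 8.76% and 10.5% of all genes. The shares that rose were 0%, 4.55% and 5%, against 10.4%, 5.52% and 8.14%. The class I heavy chain gene H2-K1 was 42 ± 3.75 FPKM in Undifferentiated, 31.5 ± 0.945 in Differentiated and 9.68 ± 2.18 in Lysfree. It fell in Lysfree vs. Differentiated (-1.64 ± 0.13), in the opposite direction to B2m. H2-D1, a more abundant class I heavy chain gene, had 167 ± 5.93, 94.1 ± 1.20 and 155 ± 9.71 FPKM in the same order of groups. Like B2m, H2-D1 was lowest in Differentiated, which did not overlap Lysfree. H2-Q4 fell in Lysfree against both groups (-3.21 ± 0.19 and -1.35 ± 0.22), and H2-T23 against Undifferentiated in both (-2.61 ± 0.28 and -3.80 ± 0.43). Class I genes are close relatives, and reads could be split between them. Cd74, the class II invariant chain, fell in Differentiated (-2.22 ± 0.14) and rose in Lysfree (1.58 ± 0.13 and 3.79 ± 0.15), while H2-Aa and H2-Eb1 were at 0 counts in every library and H2-Ab1 had at most 2. Irf2bpl, a relative of the binding partners of Irf2, fell in Differentiated (-1.11 ± 0.06) and rose in Lysfree vs. Differentiated (1.67 ± 0.10).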

How the data were processed

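RNA of 9 libraries of 3T3-L1 cells was analysed, 3 each of Undifferentiated, Differentiated and Lysfree cells, grouped by their labels. The authors mapped reads to mm10 (GRCm38) with HISAT2 2.0.5 and, by the submitters' processing notes, featureCounts 1.5.0-p3 was used, and deposited raw counts per gene and FPKM. The strand setting and annotation release were not given in the sources used here. FPKM served for levels and counts for tests. The deposited FPKM were not scaled to the count total alone. Their ratio to values so scaled was 0.988 to 0.994 in Undifferentiated, 1.03 to 1.04 in Differentiated and 0.932 to 0.953 in Lysfree. Each pair of groups was tested with edgeR 4.0.16 in R 4.3.3 (glmQLFit and glmQLFTest, TMM) on its 6 libraries, over genes detected in at least 1 of them, with Benjamini-Hochberg adjustment over all genes tested. Calls needed an adjusted p under 0.05 and at least a 2-fold change. An SE is the log2 fold change over the square root of F. edgeR moderates the spread of each gene towards that of all genes, so an SE can be smaller than a gene's own spread between libraries. For Ifit1 in Differentiated vs. Undifferentiated, edgeR gave an adjusted p of 2e-47 and limma on log2(FPKM + 1) gave 0.0111. An exact permutation test of 3 against 3 cannot go below p = 0.1. The authors' own columns of gene annotation were used as deposited. The 36 genes and the lists were chosen with earlier results of these data known. All 36 genes were accounted for, and of each list the 2 largest rises and falls among called genes with a mean of at least 1 CPM were named. Alternatives used DESeq2 1.42.0, limma 3.58.1, other normalizations, filters and left-out replicates. Sequences come from RefSeq promoter tables (GRCm38.p6). Results that need certain other genes are not reported here.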

Additional observations from a re-analysis of the deposited data

How the results depend on the processing

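Directions of the interferon genes held under most other settings. The number called in Differentiated vs. Undifferentiated was 13 with limma on log2(FPKM + 1), which shrinks low genes, and 33 with no fold threshold, and ranged from 14 to 23 when each replicate was left out. In Lysfree vs. Undifferentiated and Lysfree vs. Differentiated the left-out replicates gave 23 to 26 and 18 to 21. DESeq2 called 20, 24 and 21 in the 3 comparisons, and a test against a 2-fold change with glmTreat 14, 22 and 16. The median log2 fold change ranged with left-out replicates from -1.17 to -0.80 in Differentiated vs. Undifferentiated, the latter without Undifferentiated 2, and from -2.18 to -1.79 in Lysfree vs. Undifferentiated, the former without Lysfree 1. With limma on log2(FPKM + 1) it was -1.63 in Lysfree vs. Undifferentiated and -0.61 in Lysfree vs. Differentiated. The sign of Irf3 in Differentiated vs. Undifferentiated turned to 0.0152 and 0.0168 with limma at the pseudocounts 1 and 0.1, and to 0.0382 and 0.0159 without Undifferentiated 1 or 2, within a left-out range of -0.102 to 0.0382. That of Ifi27 in Lysfree vs. Undifferentiated turned to 0.0280 without Undifferentiated 2, within a left-out range of -0.165 to 0.0280. For the single genes, 508 values in Differentiated vs. Undifferentiated kept direction and side of the threshold, 20 became weaker and 5 stronger, against 521, 5 and 10 in Lysfree vs. Undifferentiated and 519 and 16 weaker in Lysfree vs. Differentiated. The cause of these shifts was not tested. The labels do not say whether replicate numbers pair the samples. Correlations of the deviations of libraries with the same number were -0.084 to 0.115 over 14195 genes, which with 3 libraries per group cannot settle it. With the replicate block the counts called were 20, 24 and 21. Fold changes of genes near 0 counts, such as Ifit3b and Mx1 in Lysfree, are limited by depth.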
